A study of Mus musculus with 9 samples.

Results

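The 6 libraries of cultured mouse astrocytes that had received sodium acetate, 3 of them also amyloid-beta (Aβ), were compared as 1 group with the 3 control libraries, 9 of the 9 libraries of the series. The libraries were chosen by their treatment labels and by no measured value. The question was which transcripts differed in 1 direction wherever acetate was present, with and without Aβ. The cells were primary cultures of cortical astrocytes from wild-type C57BL/6 pups, and RNA was sequenced as poly(A)-selected, paired-end libraries. The Aβ plus acetate group (3 libraries) received 1 µM Aβ oligomers for 5 days from day 8 in culture and 10 mM sodium acetate for the last day. The acetate group (3 libraries) received 10 mM sodium acetate for that day and no Aβ. The control group (3 libraries) received neither. In all 3 groups the culture spent its final day, from day 11 to harvest on day 12, without glucose, so every difference described here was measured under glucose deprivation. Cultures had been grown in serum and high glucose before that. A group with Aβ and no acetate was not analysed here, so a value in the pooled group does not separate acetate from Aβ plus acetate except through the acetate libraries alone. The titles call the libraries of a group biological replicates without saying whether they came from separate litters or cultures, so the p-values measure the spread between these libraries.

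Acetate enters cells through monocarboxylate transporters and is turned into acetyl-CoA by acetyl-CoA synthetases, Acss2 in the cytosol and nucleus and Acss1 in mitochondria. In the cytosol acetyl-CoA is the carbon source of fatty acids and sterols, which is otherwise supplied from citrate by ATP citrate lyase (Acly), and in the nucleus it is the acetyl donor for histones. In mitochondria it enters the citric acid cycle. Astrocytes are known as the brain cells that take up and oxidise acetate most readily, and they make much of the cholesterol of the brain under the control of the transcription factor SREBP2.

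The deposited values were CPM, the reads of a gene per 1000000 reads of all genes listed. The low values implied 22160000 to 57030000 reads per library, and 13504 to 13723 genes per library had at least 1 CPM. The 9 libraries fell into 2 sets by the style of their library names, and no label explains that difference in naming. Set 1 held Aβ plus acetate 1, acetate 1 and controls 1 and 2. Set 2 held Aβ plus acetate 2 and 3, acetate 2 and 3 and control 3. The first principal component carried 89.7% of the variance and separated the sets. Every comparison was therefore made with the set as a term in the fit, and each gene is also given by its 4 within-set differences, which are Aβ plus acetate minus control and acetate minus control in each set. Both differences of set 2 rest on control 3 alone, and in set 1 each acetate group is a single library.

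All 8 astrocyte markers, among them Gfap, Aqp4, Slc1a2 and Aldh1l1, were measured well above the filter, and their summed level was 8313 to 8975 CPM in the acetate-containing libraries of set 1, against 7491 to 7972 CPM in its controls. In set 2 the sum was 10430 to 12440 CPM in acetate-containing libraries and 10490 CPM in the control. Markers of other cells were measured too. The 15 microglial markers summed to 184.1 to 273.5 CPM in acetate-containing libraries of set 1, against 300.3 to 315.9 CPM in its controls. In set 2 they summed to 465.5 to 711.7 CPM in acetate-containing libraries and 590.7 CPM in the control. The 14 oligodendrocyte-lineage markers summed to 781 to 827.5 CPM against 963.7 to 1014 CPM in set 1 and 277.9 to 375.5 CPM against 247.2 CPM in set 2, acetate-containing libraries against controls. Under 1 CPM in every library were the oligodendrocyte marker Mog, the neuronal markers Slc17a7, Gad2 and Nefl, the endothelial markers Pecam1, Cdh5, Tek, Tie1 and Ly6c1 and the pericyte markers Kcnj8 and Abcc9. In such bulk libraries fewer cells of a type and less RNA per cell cannot be told apart.

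No transcript passed the threshold in the pooled comparison. Of 14058 genes tested with limma on log2(CPM + 1), 0 were higher and 0 were lower in acetate-containing libraries at an adjusted p of 0.05 (0% called in each direction), and the smallest adjusted p was 0.9997. At an unadjusted p under 0.05, 179 genes (1.27%) were higher and 323 (2.3%) were lower, 502 in all (3.57%). The pooled difference was above 0 for 6039 genes (43%) and below 0 for 8019 (57%). The differences of single genes given below are thus measured values that did not pass this test, and gene groups are described by counts and medians, without a test. The differences were small, with a 10th percentile of -0.14, a median of -0.015 and a 90th percentile of 0.11 on the log2 scale over all genes.

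Genes with 1 sign in both sets and both with and without Aβ were counted next. All 4 within-set differences were positive for 963 genes (6.85%) and negative for 1723 genes (12.3%), 2686 in all (19.1%). In these genes the median pooled log2 difference was 0.12 where all were positive and -0.13 where all were negative. A stricter count asked that every acetate-containing library lie on the same side of every control of its own set. That held for 240 genes on the higher side (1.71%) and 501 on the lower side (3.56%), 741 in all (5.27%). The excess of lower genes depended on the scaling of the libraries. After median-of-ratios scaling, 1404 genes (9.99%) were positive and 1252 (8.91%) negative in all 4 differences, and 392 and 334 had no overlap. After quantile normalization the counts were 1350 and 1279, and 376 and 339. Because both differences of a set share its controls, these counts describe the libraries and are no test. Few of the differences were large. Only 11 genes with 4 positive and 8 genes with 4 negative differences had a pooled difference beyond 0.5, and 6 and 3 of them had no overlap.

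**Figure D1:**
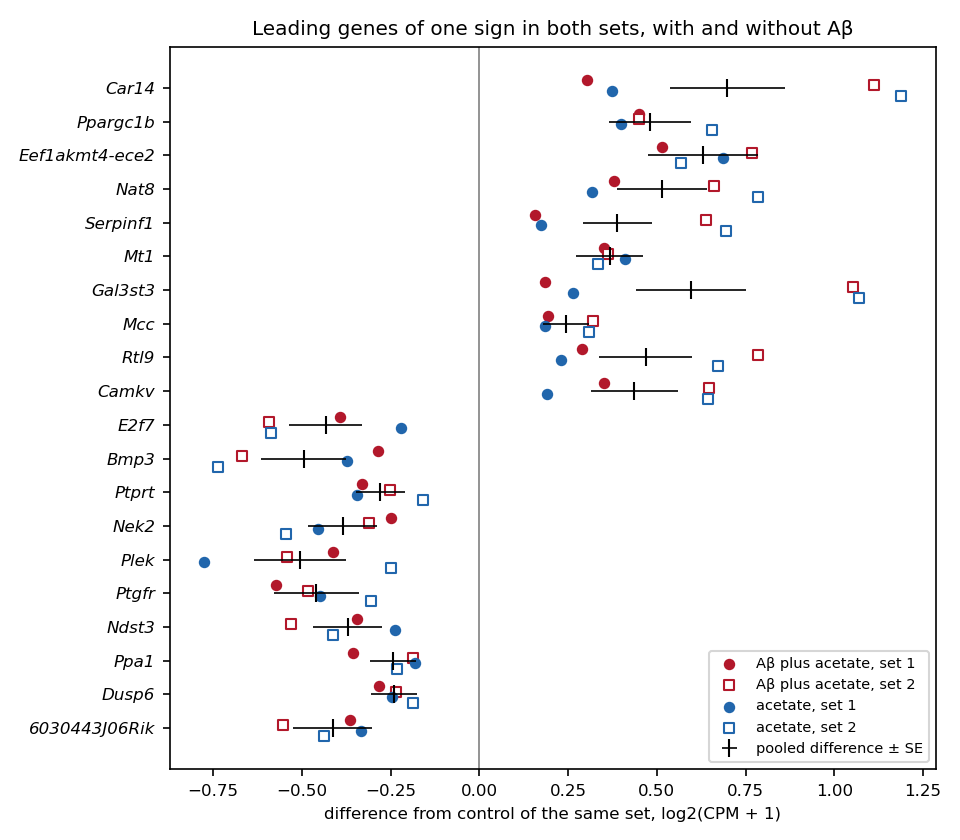
Log2 differences from the controls of the same library set for the 10 genes in each direction with the smallest unadjusted p among those of 1 sign in all 4 differences. Red marks are Aβ plus acetate and blue marks acetate, filled circles set 1 and open squares set 2, and the black bars are the pooled difference with its SE. Every mark lies on the side of its gene's pooled value, and for Car14 the set 2 marks lie at 1.11 and 1.19 while the set 1 marks lie at 0.30 and 0.37.

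The leading genes on the lower side, by unadjusted p among genes of 1 sign, included 3 of cell division and growth control. E2f7, an atypical E2F factor that represses cell-cycle genes, had 21.3, 8.10 and 7.78 CPM in Aβ plus acetate libraries 1 to 3, 24.1, 9.05 and 7.03 CPM in acetate libraries 1 to 3, and 29.7, 27.0 and 12.5 CPM in controls 1 to 3. The pooled difference was -0.43 (SE 0.10, unadjusted p 0.00111). In each set both acetate groups lay under the controls, although set 2 as a whole lay under set 1. Nek2, a centrosomal kinase of mitotic entry (chr1:191821473-191833050, mm10, as deposited), had 16.0, 12.3 and 13.1 CPM in Aβ plus acetate libraries 1 to 3, 13.7, 10.7 and 10.6 CPM in acetate libraries 1 to 3, and 20.1, 18.4 and 16.0 CPM in controls 1 to 3. Its difference was -0.39 (SE 0.097, unadjusted p 0.00178), and no acetate-containing library of either set reached the lowest control of that set. Dusp6, the phosphatase that switches off ERK and is itself induced by ERK signalling, had 110.5, 88.1 and 86.6 CPM with Aβ plus acetate, 113, 96.7 and 84.3 CPM with acetate, and 131, 138 and 103 CPM in controls. The value of -0.24 (SE 0.065, unadjusted p 0.00285) was of similar size in the 4 differences, -0.28 with Aβ plus acetate and -0.24 with acetate in set 1, and -0.24 and -0.19 for the same groups in set 2.

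Ligand and receptor genes were among the others. Bmp3, a divergent bone morphogenetic protein, had 4.57, 3.28 and 3.41 CPM with Aβ plus acetate, 4.25, 2.80 and 3.54 CPM with acetate, and 5.38, 6.23 and 5.91 CPM in controls, a difference of -0.49 (SE 0.12, unadjusted p 0.00135) that was -0.33 without control 3. The prostaglandin F2α receptor gene Ptgfr had 5.59, 6.01 and 5.25 CPM with Aβ plus acetate, 6.18, 5.72 and 7.33 CPM with acetate, and 7.87, 9.84 and 8.25 CPM in controls, a difference of -0.46 (SE 0.12, unadjusted p 0.00236). Both groups stayed under the controls of their own set in each case. Ptprt, a receptor-type tyrosine phosphatase, differed by -0.28, Ndst3, an enzyme that modifies heparan sulfate, by -0.37, and Ppa1, the cytosolic inorganic pyrophosphatase, by -0.24. The gene 6030443J06Rik, at 0.466 to 1.40 CPM, differed by -0.41.

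Also among the 10 genes on the lower side was Plek, which encodes pleckstrin, a protein kinase C substrate of leukocytes and platelets. Its levels were 24.1, 50.1 and 60.2 CPM in Aβ plus acetate libraries 1 to 3, 18.6, 59.4 and 76.5 CPM in acetate libraries 1 to 3, and 29.9, 35.3 and 80.4 CPM in controls 1 to 3. That gave -0.51 (SE 0.13, unadjusted p 0.00193), with no overlap in either set. Of the 3 genes with no overlap and a pooled difference beyond -0.5 the others were Cd36, which was to be named whatever its result, and Clec7a, which was named after its values were seen. Cd36, a scavenger receptor and fatty acid transporter (chr5:17781690-17888960, mm10, as deposited), had 29.1, 29.3 and 25.8 CPM in Aβ plus acetate libraries 1 to 3, 16.5, 25.9 and 28.8 CPM in acetate libraries 1 to 3, and 31.4, 43.6 and 36.6 CPM in controls 1 to 3. The difference was -0.58 (SE 0.16, unadjusted p 0.00332), and it was -0.37 without acetate 1. Clec7a, the myeloid β-glucan receptor dectin-1, had 9.10, 14.5 and 16.4 CPM with Aβ plus acetate, 5.18, 15.3 and 18.4 CPM with acetate, and 11.9, 11.7 and 20.0 CPM in controls, with a difference of -0.52 (SE 0.15, unadjusted p 0.005) that was -0.32 without acetate 1. All 3 genes are expressed by microglia and macrophages. The summed microglial markers given above moved with them in set 1, and in set 2 they lay on both sides of the control while all 3 genes lay below it; the part of these cells in the 3 genes' values was not tested.

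On the higher side the leading genes were mostly of low abundance. Car14, a membrane-bound carbonic anhydrase that interconverts carbon dioxide and bicarbonate (chr3:95897768-95904686, mm10, as deposited), had 2.76, 3.04 and 2.75 CPM in Aβ plus acetate libraries 1 to 3, 2.95, 3.41 and 2.83 CPM in acetate libraries 1 to 3, and 2.31, 1.81 and 0.803 CPM in controls 1 to 3. Its pooled difference was 0.70 (SE 0.16, unadjusted p 0.000909), and without control 3, the only control of set 2, it was 0.34. Gal3st3, a sulfotransferase of galactose residues, had 7.59, 4.84 and 4.00 CPM with Aβ plus acetate, 8.08, 4.68 and 4.27 CPM with acetate, and 6.58, 6.54 and 1.60 CPM in controls, a difference of 0.60 (SE 0.16, unadjusted p 0.00235) that was 0.22 without control 3. In both genes control 3 was the lowest of the 9 libraries, and set 1 showed the smaller separation. The test of whether the acetate difference itself varied between sets gave unadjusted p of 0.00487 for Car14 and 0.00181 for Gal3st3, with adjusted p of 0.451 and 0.429 by limma.

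Ppargc1b encodes PGC-1β, a coactivator of mitochondrial and lipid metabolic genes. It had 2.53, 1.86 and 2.03 CPM in Aβ plus acetate libraries 1 to 3, 2.41, 2.49 and 2.30 CPM in acetate libraries 1 to 3, and 1.74, 1.44 and 1.15 CPM in controls 1 to 3. The pooled difference was 0.48 (SE 0.12, unadjusted p 0.00123), and the 4 differences were 0.45 with Aβ plus acetate and 0.40 with acetate in set 1, and 0.45 and 0.66 for the same groups in set 2. Its separation was thus of like size in both sets, with every acetate-containing library at or above 1.86 CPM and every control at or under 1.74 CPM. Nat8, an N-acetyltransferase that uses acetyl-CoA, had 1.02, 1.39 and 1.16 CPM with Aβ plus acetate, 0.934, 1.55 and 1.40 CPM with acetate, and 0.662, 0.451 and 0.436 CPM in controls, a difference of 0.51 (SE 0.13, unadjusted p 0.00152). Nat8 belongs to a cluster of near-identical genes, so its count may include reads of its paralogs. Eef1akmt4-ece2, a read-through locus that shares reads with the genes Eef1akmt4 and Ece2, had a difference of 0.63 (SE 0.15, unadjusted p 0.00144) at 0.253 to 1.87 CPM and is uncertain for that reason.

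Serpinf1, which encodes the secreted neurotrophic serpin PEDF, stood far apart between the sets. It had 318, 76.5 and 68.7 CPM in Aβ plus acetate libraries 1 to 3, 322, 79.6 and 71.5 CPM in acetate libraries 1 to 3, and 289, 282 and 46.2 CPM in controls 1 to 3. Its difference was 0.39 (SE 0.097, unadjusted p 0.00162), with 0.16 with Aβ plus acetate and 0.17 with acetate in set 1, and 0.64 and 0.70 for the same groups in set 2. The remaining genes of the 10 on the higher side were Mt1, described with the metallothioneins, Mcc at 0.24, Rtl9, a gene derived from a retrotransposon Gag, at 0.47, and Camkv, a calmodulin-binding pseudokinase, at 0.44. Without control 3 Rtl9 was at 0.26, Camkv at 0.27 and Serpinf1 at 0.17. Lgi3, a secreted leucine-rich repeat protein, at 0.52 and Tgm1, a protein-crosslinking transglutaminase, at 0.52 complete the 6 genes with no overlap and a difference beyond 0.5, and they too are named after their values were seen. The differences of Lgi3 were 0.28 with Aβ plus acetate and 0.20 with acetate in set 1, and 0.76 and 0.96 for the same groups in set 2, and without control 3 it was at 0.24. Tgm1 had 5.10, 57.2 and 62.8 CPM with Aβ plus acetate, 3.50, 39.2 and 38.9 CPM with acetate, and 2.72, 3.39 and 29.5 CPM in controls, so that the level with Aβ plus acetate was above that with acetate in both sets.

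Genes of cholesterol synthesis lay mostly below the controls in the acetate-containing libraries, with and without Aβ and in both sets. Of 24 measured members of a list of the pathway and other SREBP2 targets, 22 had a negative and 2 a positive pooled difference. Over all genes 57% were negative. The list's median was -0.17, against -0.015 over all genes tested. In 17 of the 24 (70.8%) all 4 within-set differences were negative, against 12.3% of all genes, and in 0 of 24 were all positive. In 8 of the 24 there was no overlap within sets, against 3.56% of all genes. Unadjusted p was under 0.05 on the lower side for 11 of the 24 members, against 2.3% of all genes, and adjusted p for 0. The medians over the list were -0.10 with Aβ plus acetate and -0.19 with acetate in set 1, and -0.17 and -0.23 for the same groups in set 2. The list was drawn up with earlier results of these data known.

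The pathway was followed from its entry to its end. Hmgcs1, the synthase that begins the mevalonate branch, differed by -0.15 (SE 0.079, unadjusted p 0.0909), with 4 negative differences, and was at -0.064 without control 3. Of the enzymes from mevalonate to farnesyl diphosphate, Mvk differed by -0.18, Pmvk by -0.17, Mvd by -0.22, Idi1 by -0.23 and Fdps by -0.26, again with 4 negative differences each. The differences of Idi1 were unequal between sets, -0.030 with Aβ plus acetate and -0.090 with acetate in set 1, and -0.43 and -0.47 for the same groups in set 2, and without control 3 it was at -0.060. Fdps, farnesyl diphosphate synthase, had 61.8, 38.6 and 36.7 CPM with Aβ plus acetate, 50.8, 36.3 and 32.5 CPM with acetate, and 66.3, 66.8 and 43.7 CPM in controls. Sqle, the epoxidase that commits squalene to sterols, had 277, 144 and 139.5 CPM in Aβ plus acetate libraries 1 to 3, 288, 145 and 145 CPM in acetate libraries 1 to 3, and 309, 321 and 163 CPM in controls 1 to 3. Its difference was -0.17 (SE 0.058, unadjusted p 0.0116) and its 4 within-set differences, -0.19 with Aβ plus acetate and -0.13 with acetate in set 1, and -0.21 and -0.17 for the same groups in set 2, were of like size. Squalene synthase, Fdft1, was at -0.10 with 1 of 4 differences above 0.

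Lss, lanosterol synthase, closes the sterol ring. It had 52.5, 49.1 and 50.4 CPM in Aβ plus acetate libraries 1 to 3, 43.3, 44.4 and 43.2 CPM in acetate libraries 1 to 3, and 56.3, 54.4 and 59.7 CPM in controls 1 to 3. The pooled difference was -0.27 (SE 0.083, unadjusted p 0.00629), and in each set both acetate groups lay under the controls, with the acetate libraries lowest. Nsdhl, a dehydrogenase that removes a methyl group of lanosterol derivatives, had 45.5, 22.2 and 23.5 CPM in Aβ plus acetate libraries 1 to 3, 43.8, 21.6 and 20.6 CPM in acetate libraries 1 to 3, and 52.7, 53.0 and 26.0 CPM in controls 1 to 3. Its difference was -0.24 (SE 0.067, unadjusted p 0.00396), with -0.21 with Aβ plus acetate and -0.27 with acetate in set 1, and -0.18 and -0.29 for the same groups in set 2. The level of Nsdhl was far lower in set 2 than in set 1 in every group, and the within-set differences were nonetheless of like size. Of the other late enzymes, Cyp51 differed by -0.24, Tm7sf2 by -0.27, Ebp by -0.21 and Sc5d by -0.12, each with 4 negative differences. Cyp51 was at -0.15 without control 3. Msmo1, the sterol methyl oxidase, was at -0.085 with both signs, 0.056 with Aβ plus acetate and -0.022 with acetate in set 1, and -0.17 and -0.26 for the same groups in set 2. Hsd17b7, a sterol ketone reductase, was at -0.097 with both signs too, -0.11 with Aβ plus acetate and 0.0070 with acetate in set 1, and -0.19 and -0.11 for the same groups in set 2. Dhcr7, which completes cholesterol, was at 0.043 with a sign that differed between sets, and Acat2, the acetoacetyl-CoA thiolase of the cytosol, was at 0.054.

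Genes of sterol transport and regulation followed the enzymes only in part. Stard4, a sterol carrier, differed by -0.27 (SE 0.094, unadjusted p 0.0148), with -0.16 with Aβ plus acetate and -0.032 with acetate in set 1, and -0.50 and -0.46 for the same groups in set 2. Without control 3 it was at -0.095. Insig1, the sterol-sensing retention protein and itself an SREBP2 target, differed by -0.28 (SE 0.12, unadjusted p 0.0456), with 0.092 with Aβ plus acetate and -0.17 with acetate in set 1, and -0.47 and -0.67 for the same groups in set 2, and was at -0.041 without control 3. Srebf2, the gene of SREBP2, was at -0.11 (SE 0.098, unadjusted p 0.283) and was above the control with Aβ plus acetate in set 2. The count of members with 4 negative differences was 13 without control 2 and 13 without acetate 3, and 15 after median-of-ratios scaling.

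The promoters of Lss and Nsdhl are shown because SREBP2 acts at such promoters together with the CCAAT-binding factor NF-Y. They are RefSeq sequences on GRCm38.p6, 250 bases before to 50 after the annotated start, read 5′ to 3′ on the plus strand, chr10:76531355-76531654 for Lss and chrX:72918271-72918570 for Nsdhl. Capitals mark each CCAAT box, which reads ATTGG where it lies on the other strand.
Lss: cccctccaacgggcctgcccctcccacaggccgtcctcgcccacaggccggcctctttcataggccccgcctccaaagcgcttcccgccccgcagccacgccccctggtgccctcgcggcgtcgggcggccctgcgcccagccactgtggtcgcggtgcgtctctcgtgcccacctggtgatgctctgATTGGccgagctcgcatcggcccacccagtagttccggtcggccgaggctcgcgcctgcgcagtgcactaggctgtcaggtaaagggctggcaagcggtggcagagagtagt
Nsdhl: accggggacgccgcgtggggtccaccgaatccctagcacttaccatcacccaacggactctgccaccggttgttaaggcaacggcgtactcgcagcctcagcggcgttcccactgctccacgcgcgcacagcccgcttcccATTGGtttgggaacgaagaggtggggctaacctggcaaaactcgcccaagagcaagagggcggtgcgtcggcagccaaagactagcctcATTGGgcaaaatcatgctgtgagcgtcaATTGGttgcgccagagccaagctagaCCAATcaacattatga
The Lss window holds 1 CCAAT box, whose first base lies at -62, and the Nsdhl window holds 4, at -109, -20, 9 and 35. Of 17 list members with a promoter in the table, 15 (88.2%) held CCAAT on either strand, against 38.9% of the 11106 promoters of tested genes. The share was not particular to this list. It was 94.4% for endoplasmic reticulum chaperones, 88% for mitosis, 59.1% for DNA replication and 0% for metallothioneins. A sterol response element written TCACNCCAC was found in 1 of the 17, Hmgcs1, against 1.08% of all promoters. These letters were searched after the values were seen, and a match is no evidence of binding.

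**Figure D2:**
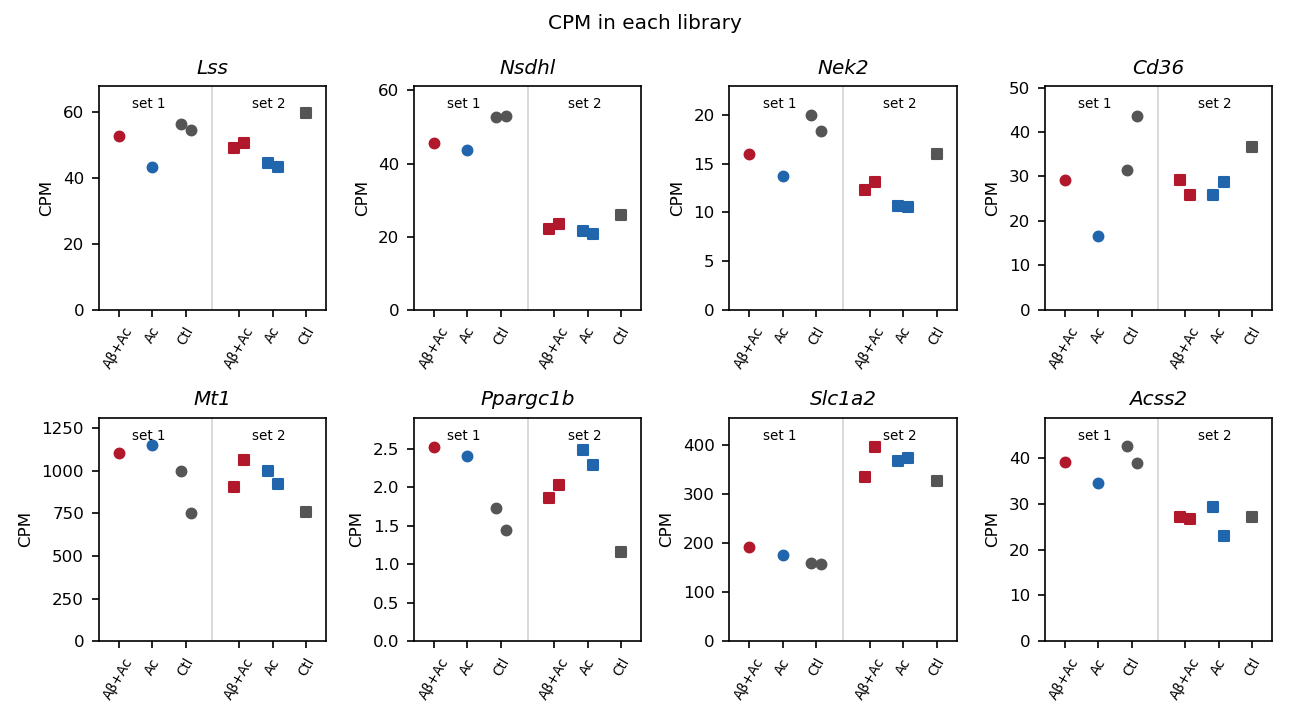
CPM in each library for 8 genes, with Aβ plus acetate (red), acetate (blue) and control (grey) side by side within set 1 (circles) and set 2 (squares). For Lss, Nsdhl, Nek2 and Cd36 every acetate-containing library lies under the controls of its set, and for Mt1, Ppargc1b and Slc1a2 above them, while Acss2 overlaps.

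Genes of DNA replication were also mostly on the lower side. Of 28 measured members, 26 had a negative pooled difference, against 57% of all genes, with a median of -0.11. All 4 differences were negative in 12 (42.9%), against 12.3% of all genes, and positive in 0, and 7 had no overlap, against 3.56% of all genes. Pcna, the sliding clamp of the replication fork, had 89.2, 69.3 and 66.3 CPM in Aβ plus acetate libraries 1 to 3, 88.7, 66.5 and 70.9 CPM in acetate libraries 1 to 3, and 95.8, 98.9 and 80.2 CPM in controls 1 to 3, a difference of -0.17 (SE 0.059, unadjusted p 0.0124). Cdc45, a subunit of the replicative helicase, had 5.63, 6.12 and 5.16 CPM with Aβ plus acetate, 4.88, 4.78 and 6.27 CPM with acetate, and 6.91, 6.86 and 7.09 CPM in controls, a difference of -0.32 (SE 0.11, unadjusted p 0.0133). Among the Mcm helicase subunits Mcm7 was at -0.16, Mcm5 at -0.17, Mcm4 at -0.10 and Mcm3 at -0.090 with 4 negative differences each, while Mcm6 was at -0.021 and Mcm2 at -0.0056 with both signs. For Mcm5 the differences were -0.26 with Aβ plus acetate and -0.35 with acetate in set 1, and -0.0047 and -0.012 for the same groups in set 2, with set 2 close to 0. The count of 12 was 7 after median-of-ratios scaling, where 8.91% of all genes had 4 negative differences, and 7 after quantile normalization, where 9.1% had, and it ranged over 10 to 12 when single libraries were left out.

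The list of mitosis and spindle genes behaved differently between libraries. Of 30 members 29 had a negative pooled difference, against 57% of all genes, with a median of -0.14. All 4 differences were negative in 3 (10%), near the 12.3% of all genes. The medians were -0.26 with Aβ plus acetate and -0.40 with acetate in set 1, and 0.29 and -0.15 for the same groups in set 2. The 3 genes were Nek2, Kif11 and Ckap2l. In these 3 of the 30 members the groups did not overlap within sets, against 3.56% of all genes. Kif11, the kinesin that separates the spindle poles, had 25.4, 24.1 and 25.0 CPM in Aβ plus acetate libraries 1 to 3, 25.6, 22.1 and 20.6 CPM in acetate libraries 1 to 3, and 26.8, 35.3 and 33.2 CPM in controls 1 to 3, a difference of -0.38 (SE 0.10, unadjusted p 0.00331). Ckap2l, a spindle-associated protein, had 29.6, 24.2 and 23.1 CPM with Aβ plus acetate, 28.7, 20.0 and 16.7 CPM with acetate, and 35.9, 36.7 and 29.7 CPM in controls, a difference of -0.39 (SE 0.11, unadjusted p 0.0037). Cdk1, the kinase that drives mitosis, had 28.6, 15.8 and 15.1 CPM with Aβ plus acetate, 29.2, 14.5 and 14.7 CPM with acetate, and 38.3, 39.5 and 14.6 CPM in controls, so that it lay under the controls in set 1 and at their level in set 2. The kinase Plk1 ran from -0.94 with acetate in set 1 to 0.60 with Aβ plus acetate in set 2. Mki67, the proliferation antigen, was at -0.29 with Aβ plus acetate and -0.47 with acetate in set 1, and at 0.45 and 0.057 in set 2. The list's median was -0.061 without control 2, -0.055 without acetate 1 and -0.32 without control 3.

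The promoter of Kif11 (chr19:37376132-37376431, GRCm38.p6, RefSeq, plus strand) is shown for the cell-cycle homology region, TTTGAA, through which many mitotic genes are repressed outside division. Capitals mark it, on the other strand as TTCAAA, with its first base at -19.
Kif11: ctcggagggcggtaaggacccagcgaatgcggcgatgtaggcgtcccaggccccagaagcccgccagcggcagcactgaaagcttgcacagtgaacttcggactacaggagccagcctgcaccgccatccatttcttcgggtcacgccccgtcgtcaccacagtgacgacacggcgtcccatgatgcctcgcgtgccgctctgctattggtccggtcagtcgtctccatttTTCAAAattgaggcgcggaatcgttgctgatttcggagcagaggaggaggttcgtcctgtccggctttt
The letters TTTGAA occurred on either strand in 19 of 25 mitosis promoters in the table (76%), in 3 of 22 DNA replication promoters (13.6%) and in 11.5% of all 11106. CCAAT was in 22 of the 25 mitosis promoters (88%). Here too a match is no evidence of binding.

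Endoplasmic reticulum chaperones and genes of the unfolded protein response had 19 negative pooled differences among 20 members, against 57% of all genes. Their median was -0.11. All 4 differences were negative in 10 (50%), against 12.3% of all genes, and 2, Syvn1 and Herpud1, had no overlap, against 3.56% of all genes. Syvn1, the ubiquitin ligase of protein disposal from the endoplasmic reticulum, had 39.9, 241 and 245 CPM in Aβ plus acetate libraries 1 to 3, 45.7, 221 and 237 CPM in acetate libraries 1 to 3, and 52.6, 48.1 and 282 CPM in controls 1 to 3, a difference of -0.24 (SE 0.069, unadjusted p 0.00403). Hyou1, an Hsp70-like chaperone, had 139, 1258 and 1184 CPM with Aβ plus acetate, 136, 1095 and 1485 CPM with acetate, and 161, 151 and 1413 CPM in controls, a difference of -0.18 (SE 0.091, unadjusted p 0.069). Both genes stood far higher in set 2 than in set 1 in every group. The BiP gene Hspa5 was at -0.13 and the transcription factor gene Xbp1 at -0.12, each with 4 negative differences. Without acetate 2 the count of 10 was 4 (11.3% of all genes had 4 negative differences), and without control 1 it was 16 (18.6% of all genes). Without the set in the fit the list's median was 0.77 in place of -0.11.

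The enzymes that handle acetate itself showed small differences. Acly, ATP citrate lyase, had 158, 117 and 113 CPM in Aβ plus acetate libraries 1 to 3, 153, 115 and 108 CPM in acetate libraries 1 to 3, and 176, 172 and 123 CPM in controls 1 to 3, a difference of -0.14 (SE 0.058, unadjusted p 0.034), with -0.14 with Aβ plus acetate and -0.18 with acetate in set 1, and -0.094 and -0.13 for the same groups in set 2. In both sets every acetate-containing library lay under its controls. Acss1, the mitochondrial acetyl-CoA synthetase, had 57.6, 56.3 and 59.9 CPM with Aβ plus acetate, 57.0, 55.9 and 61.8 CPM with acetate, and 61.1, 61.0 and 64.2 CPM in controls, a difference of -0.11 (SE 0.061, unadjusted p 0.1) and no overlap within sets. Acss2, the cytosolic and nuclear synthetase, had 39.1, 27.2 and 26.7 CPM with Aβ plus acetate, 34.6, 29.3 and 22.9 CPM with acetate, and 42.6, 38.9 and 27.1 CPM in controls, a difference of -0.096 (SE 0.088, unadjusted p 0.298) with overlap in both sets. Acss3, the third synthetase, was at 0.18 (SE 0.10, unadjusted p 0.103) with 4 positive differences and at 0.062 without control 3, and Slc16a7, the monocarboxylate transporter MCT2, at 0.20 (SE 0.14, unadjusted p 0.173), also with 4. Slc16a1, the transporter MCT1, had 202, 427 and 439 CPM with Aβ plus acetate, 235, 441 and 423 CPM with acetate, and 189, 205 and 440.2 CPM in controls, and its differences were 0.038 with Aβ plus acetate and 0.25 with acetate in set 1, and -0.024 and -0.028 for the same groups in set 2. The citrate carrier Slc25a1 was at 0.16 (SE 0.087, unadjusted p 0.0907), with 0.00070 with Aβ plus acetate and -0.025 with acetate in set 1, and 0.43 and 0.32 for the same groups in set 2. Of the 14 measured members of this list 7 were higher and 7 lower, with a median of 0.031. All 4 differences were positive in 2 (14.3%) and negative in 4 (28.6%), against 6.85% and 12.3% of all genes.

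Neighbouring pathways of carbon use were counted in the same way, against 6.85% of all genes with 4 positive and 12.3% with 4 negative differences. Of 28 genes of the citric acid cycle and pyruvate entry, 1 (Ogdh, a subunit of the 2-oxoglutarate dehydrogenase) had 4 positive and 3 had 4 negative differences, with a median of -0.024. Of 18 glycolytic genes, 2 had 4 positive and 3 had 4 negative, with a median of 0.068. The glycolytic medians were -0.023 with Aβ plus acetate and -0.10 with acetate in set 1, and 0.19 and 0.20 for the same groups in set 2. The interaction of the acetate difference with the set had an unadjusted p under 0.05 for 4 of the 18, against 8.44% of all genes. Hk2, hexokinase 2, had 29.6, 61.7 and 61.0 CPM with Aβ plus acetate, 23.1, 57.9 and 56.5 CPM with acetate, and 32.8, 30.4 and 70.2 CPM in controls, a difference of -0.25 (SE 0.082, unadjusted p 0.00916), while Ldhb, the lactate dehydrogenase subunit that favours lactate use, was at 0.17 (SE 0.076, unadjusted p 0.0482), and neither overlapped within sets. Without control 3 Ldhb was at 0.072. Txnip, a glucose-responsive target of the factor MondoA, had 30.4, 8.65 and 9.43 CPM with Aβ plus acetate, 30.3, 10.7 and 7.02 CPM with acetate, and 31.7, 34.8 and 7.27 CPM in controls, with negative differences in set 1 and positive ones in set 2. Of 19 genes of fatty acid and glycerolipid synthesis, 2 had 4 positive and 0 had 4 negative differences, with a median of -0.0028. Of 27 writers, erasers and readers of histone acetylation, 3 had 4 positive and 2 had 4 negative, with a median of 0.0027.

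Genes of fatty acid oxidation, ketone metabolism and PPAR targets formed a list of 32 measured members. A positive pooled difference was found for 26 of them, against 43% of all genes, with a median of 0.047. All 4 differences were positive in 8 (25%), against 6.85% of all genes, and negative in 1, Cd36. The 8 included Ppargc1b, the thiolase gene Acaa2 at 0.17 (SE 0.094, unadjusted p 0.0979) and 0.096 without control 3, the dienoyl-CoA reductase gene Decr1 at 0.095 (SE 0.060, unadjusted p 0.139) and Acadm, the medium-chain acyl-CoA dehydrogenase, at 0.097 (SE 0.068, unadjusted p 0.178). Cpt1a, the gate for fatty acids into mitochondria, was at 0.094, with negative differences in set 1 and positive ones in set 2. Angptl4, a PPAR target and lipase inhibitor, had 2.00, 0.954 and 1.03 CPM with Aβ plus acetate, 1.30, 1.32 and 1.15 CPM with acetate, and 1.53, 1.67 and 0.394 CPM in controls, with 1 of 4 differences negative. Fabp5, a fatty acid-binding protein outside this list, had 73.2, 59.5 and 61.0 CPM in Aβ plus acetate libraries 1 to 3, 58.4, 53.2 and 55.3 CPM in acetate libraries 1 to 3, and 87.4, 80.7 and 64.1 CPM in controls 1 to 3, a difference of -0.27 (SE 0.087, unadjusted p 0.0087) with no overlap within sets, or -0.18 without acetate 1. The list's median was 0.018 without control 3, 0.083 without control 1, 0.082 without acetate 1 and -0.025 without the set in the fit.

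**Figure D3:**
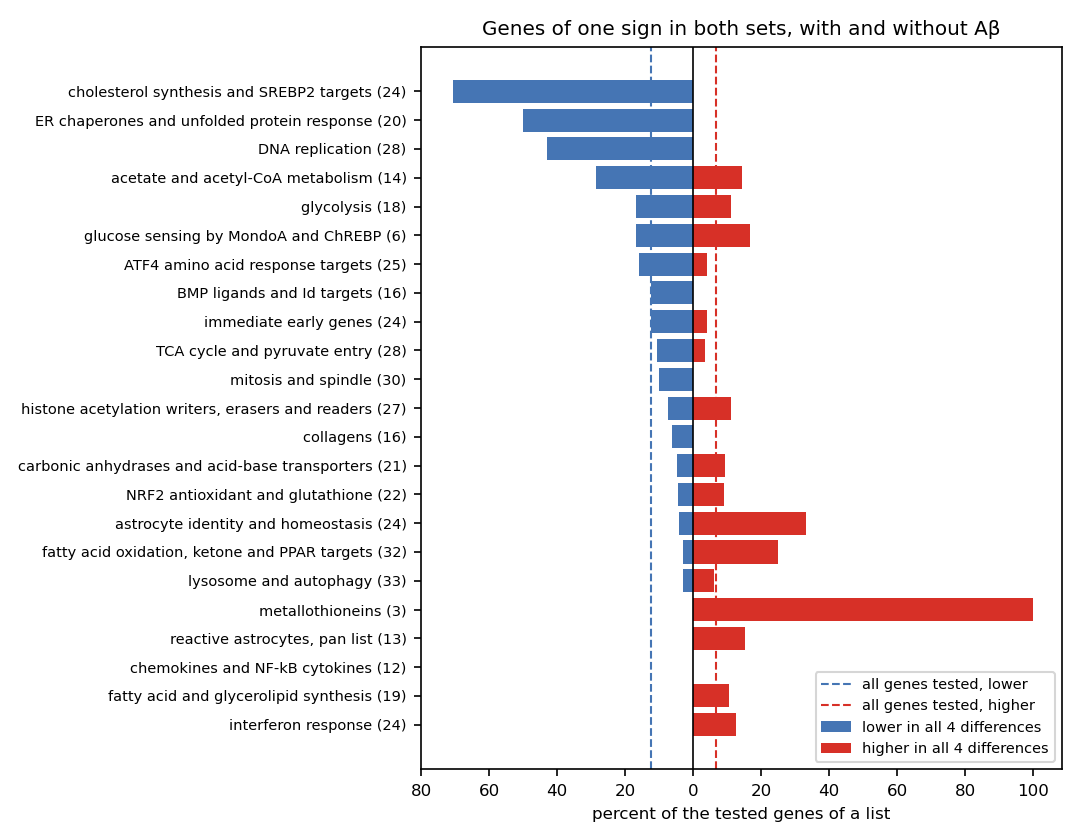
Share of each gene list, in percent of its tested genes (number in brackets), with 4 negative (blue, to the left) or 4 positive (red, to the right) within-set differences. Dashed lines mark the shares over all genes tested, 12.3% and 6.85%, and the cholesterol list reaches 70.8% on the left.

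Of 24 measured genes of astrocyte identity and homeostasis, 16 had a positive and 8 a negative pooled difference, against 43% and 57% of all genes. The list's median was 0.081. All 4 differences were positive in 8 (33.3%), against 6.85% of all genes, and negative in 1, and unadjusted p was under 0.05 on the higher side for 5, against 1.27% of all genes. Slc1a2, the glutamate transporter GLT-1, had 191, 334 and 396 CPM in Aβ plus acetate libraries 1 to 3, 176, 368 and 374 CPM in acetate libraries 1 to 3, and 161, 157 and 326 CPM in controls 1 to 3, a difference of 0.19 (SE 0.070, unadjusted p 0.0181). Every acetate-containing library lay above the controls of its set, and set 2 stood above set 1 in every group. Ndrg2 was at 0.22 (SE 0.085, unadjusted p 0.0217), or 0.13 without control 3, and the transcription factor gene Sox9 at 0.17 (SE 0.071, unadjusted p 0.0312), both without overlap. Gfap, the intermediate filament that marks astrocyte reactivity, had 4809.5, 5709 and 6543 CPM in Aβ plus acetate libraries 1 to 3, 4126, 6111 and 4766 CPM in acetate libraries 1 to 3, and 4094, 3433 and 5037 CPM in controls 1 to 3, a difference of 0.22 (SE 0.11, unadjusted p 0.0638), with overlap in set 2. Apoe, the lipoprotein of astrocytes, had 4045, 4610.1 and 4639.6 CPM with Aβ plus acetate, 3508, 5301 and 4329 CPM with acetate, and 4079.6, 2898 and 4495 CPM in controls, a difference of 0.10 (SE 0.11, unadjusted p 0.377) that was -0.016 without control 2. The connexin gene Gja1 was at -0.0045, positive in set 1 and negative in set 2, and the glutamine synthetase gene Glul at 0.023. Without acetate 2 the list's median was 0.052.

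Of 13 genes of the pan-reactive astrocyte list, Gfap and the protease inhibitor gene Serpina3n (0.23 (SE 0.13, unadjusted p 0.1)) had 4 positive differences and 0 had 4 negative. The shares were 15.4% and 0%, against 6.85% and 12.3% of all genes. Lcn2, the secreted lipocalin of reactive astrocytes, was at 0.42 (SE 0.27, unadjusted p 0.14), with 0.38 with Aβ plus acetate and -0.090 with acetate in set 1, and 1.20 and 0.33 for the same groups in set 2, and was at 0.14 without control 3. None of the 12 measured chemokine and cytokine genes had 1 sign throughout, against 19.1% of all genes. Among 24 interferon-response genes 3 (12.5%) had 4 positive differences, against 6.85% of all genes.

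The metallothioneins, small cysteine-rich proteins that bind zinc and copper, had 3 measured genes. All 3 had 4 positive differences, against 6.85% of all genes, 1 of them (Mt1) had no overlap, and 0 passed the adjusted test. Mt1 had 1105, 903 and 1062 CPM in Aβ plus acetate libraries 1 to 3, 1152, 1001 and 923 CPM in acetate libraries 1 to 3, and 1001, 749.8 and 761 CPM in controls 1 to 3, a difference of 0.37 (SE 0.095, unadjusted p 0.00225). Its 4 differences, 0.35 with Aβ plus acetate and 0.41 with acetate in set 1, and 0.36 and 0.34 for the same groups in set 2, were nearly equal, and no acetate-containing library overlapped the controls of its set. Mt2 had 1014, 1038 and 1074 CPM in Aβ plus acetate libraries 1 to 3, 1132, 1163 and 988 CPM in acetate libraries 1 to 3, and 1108, 789.5 and 883 CPM in controls 1 to 3, a difference of 0.23 (SE 0.10, unadjusted p 0.0489) with overlap in set 1. Mt3, the brain form, had 876, 555 and 612 CPM with Aβ plus acetate, 809, 601 and 489 CPM with acetate, and 956, 679 and 456 CPM in controls, a difference of 0.17 (SE 0.12, unadjusted p 0.169). In set 1 control 2 lay under control 1 for all 3 genes, and without control 2 only 1 of the 3 had 4 positive differences. The median of the 3 was 0.23 with all libraries, 0.35 without control 1 and 0.13 without control 2. The promoter of Mt1 (chr8:94178839-94179138, GRCm38.p6, RefSeq, plus strand) is shown for the metal response element, TGCNCNC, through which the zinc sensor MTF-1 acts, with each match in capitals.
Mt1: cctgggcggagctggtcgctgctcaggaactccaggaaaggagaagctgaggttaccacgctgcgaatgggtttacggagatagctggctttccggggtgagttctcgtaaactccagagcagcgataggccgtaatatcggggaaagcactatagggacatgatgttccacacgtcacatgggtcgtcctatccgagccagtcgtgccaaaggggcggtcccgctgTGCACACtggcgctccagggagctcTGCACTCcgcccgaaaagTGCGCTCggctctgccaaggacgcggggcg
The 3 matches begin at -23, 3 and 21. All 3 metallothionein promoters held the letters on either strand, against 60.6% of all promoters. The share was 81.8% for DNA replication, 64% for mitosis, 52.9% for the cholesterol list and 44.4% for endoplasmic reticulum chaperones. With 3 promoters and letters this common, the match says little, and it is no evidence of binding.

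Microglial genes varied mainly with single libraries. All 14 measured microglial markers of the list had a negative pooled difference, against 57% of all genes, with a median of -0.31. The within-set medians were unlike, -0.16 with Aβ plus acetate and -0.95 with acetate in set 1, and -0.30 and 0.26 for the same groups in set 2. Ptprc (CD45) and Trem2, a lipid receptor of microglia, had 4 negative differences (14.3% of the 14), near the 12.3% of all genes. Trem2 had 12.8, 19.5 and 25.6 CPM in Aβ plus acetate libraries 1 to 3, 5.18, 28.6 and 26.0 CPM in acetate libraries 1 to 3, and 16.9, 13.5 and 27.9 CPM in controls 1 to 3, a difference of -0.52 (SE 0.23, unadjusted p 0.0413). Acetate 1 lay far under the other libraries of its set, and without it Trem2 was at -0.19 and the list's median at -0.067. The median was -0.16 without control 1 and -0.56 without control 3. Every one of the 15 markers reached 1 CPM in at least 1 library.

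**Figure D4:**
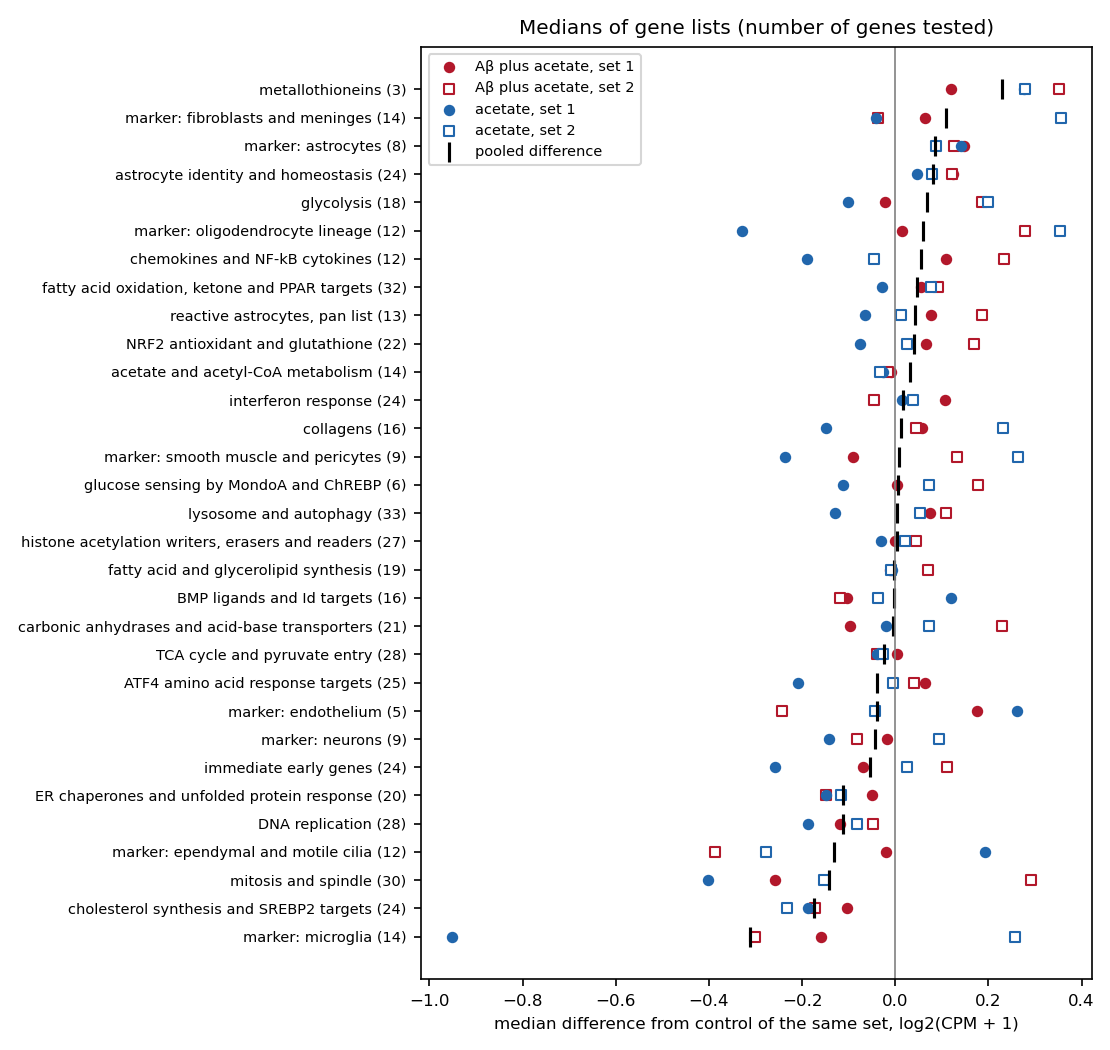
Median log2 difference from the controls of the same set over the tested genes of each list (number in brackets), with Aβ plus acetate in red, acetate in blue, set 1 as filled circles and set 2 as open squares, and the pooled median as a black bar. The 4 marks of the cholesterol list lie between -0.23 and -0.10, while those of the microglial markers run from -0.95 to 0.26 and those of mitosis from -0.40 to 0.29.

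Of 24 immediate early genes measured, 1 (Nr4a1) had 4 positive and 3 (Dusp6, Dusp1 and Klf2) had 4 negative differences, with a median of -0.055. Dusp1, a phosphatase of MAP kinases, had 44.7, 48.8 and 42.0 CPM with Aβ plus acetate, 44.6, 47.7 and 42.1 CPM with acetate, and 61.4, 52.8 and 48.4 CPM in controls, a difference of -0.24 (SE 0.085, unadjusted p 0.0162). Of 25 targets of the amino acid response factor ATF4, 1 had 4 positive and 4 had 4 negative differences, and of 22 NRF2 and glutathione genes 2 and 1. Among 21 carbonic anhydrases and acid-base transporters, Car14 and Car11 had 4 positive differences and 1 had 4 negative. Car11 was at 0.33 (SE 0.11, unadjusted p 0.0113), and at 0.15 without control 3. Among 16 BMP ligands and Id targets 0 and 2 did, among 16 collagens 0 and 1, and among 33 lysosome and autophagy genes 2 and 1. Over all genes 6.85% had 4 positive and 12.3% had 4 negative differences.

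Whether acetate-containing libraries differed from controls by unlike amounts in the 2 sets was tested as an interaction. Limma called 0 of 14058 genes (0%), with a smallest adjusted p of 0.17, and 1187 genes (8.44%) had an unadjusted p under 0.05. Without control 2 the test called 1 gene. Among the genes of cell division the interaction of Cdk1 was 0.45 (unadjusted p 0.00899, adjusted p 0.493), set 2 minus set 1.

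The 2 treatments in the pooled group were compared with each other, Aβ plus acetate against acetate with the set in the fit. Limma called 0 genes (0%), with a smallest adjusted p of 0.91 and 436 genes (3.1%) at an unadjusted p under 0.05. Tgm1 was at 0.55 (SE 0.11, unadjusted p 0.000413), above acetate in both sets. Lss was at 0.21 (SE 0.073, unadjusted p 0.0137), Fdps at 0.18 (SE 0.076, unadjusted p 0.0385), Nek2 at 0.22 (SE 0.090, unadjusted p 0.0297) and Fabp5 at 0.21 (SE 0.080, unadjusted p 0.0249). Lss, Fdps, Nek2 and Fabp5 were thus lower against the controls with acetate than with Aβ plus acetate, and the adjusted p did not pass for any of them. Against the controls each treatment alone also gave 0 called genes with limma. At an unadjusted p under 0.05, 421 genes were higher and 311 lower with Aβ plus acetate, and 78 were higher and 189 lower with acetate. The median of the difference between the treatments was 0.072 over the cholesterol list, 0.29 over the mitosis list and -0.0022 over the metallothioneins.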

How the data were processed

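The 9 libraries were grouped by their treatment labels and divided into 2 sets by the style of their library names. The authors deposited CPM, counts per 1000000 reads over 18061 listed genes, which is the unit of every value used here. Per the submitters' processing notes the tools were FastQC, Partek and the aligner STAR 2.7.3a. The same notes list GRCm39 beside mm10 with no role for either. The counter, strand setting and filters are not given in the sources used here. Deposited positions were read as mm10, since 17612 (99.82%) of 17644 symbols matched in GENCODE M21 lay at the annotated gene. Low CPM values, up to 20 reads, came out as whole reads (tolerance 0.1) in only 93.31% to 94.39% of cases per library, so no count model was used.

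The test covered 14058 genes with at least 1 CPM in at least 3 libraries. It was run on log2(CPM + 1), a scale that understates the differences of low genes. Limma 3.58.1 in R 4.3.3 was used with a trended and robust prior, two-sided, with terms for the set and for acetate, on 9 libraries with 6 residual degrees of freedom. P-values were adjusted by Benjamini-Hochberg over all genes tested, with a threshold of 0.05. The script was tested on simulated data.

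Named genes were the 10 of 1 sign in each direction with the smallest unadjusted p (none passed the threshold). Up to 4 members of some of the lists, by p, were added. Acss1, Acss2, Acly, Slc16a1, Txnip, Lss, Nek2, Cd36, Fabp5, Gfap and Apoe were named whatever their result. Genes with no overlap and a pooled difference beyond 0.5 were added after the values were seen. Some named genes and list members are not reported here. The libraries compared, the 31 gene lists and the naming rule were chosen with earlier results of these data known.

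Replicate numbers in the titles and in the library names differ. With group means removed, libraries that share a library-name number correlated in 7 of 7 pairs (r 0.761 to 0.947), above the limit of 0.1. Every such pair lay within 1 set, so this correlation could not tell pairing from the set. With the set also removed 0 of 7 pairs passed the limit (-0.499 to -0.105), and pairing by these numbers was not established. By title numbers 7 of 9 pairs passed the limit (-0.842 to 0.947), and 1 of 9 with the set removed. Alternatives covered the pseudocount, filter, scaling, prior, library weights, set term, replicate block, each library left out, each set alone and each acetate group alone.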

Additional observations from a re-analysis of the deposited data

Results flagged for a closer look

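Cd36, the scavenger receptor and fatty acid transporter, had 16.5 CPM in acetate 1, the lowest of the 6 acetate-containing libraries, of which the others ran from 25.8 to 29.3 CPM. On the log2 scale the gap to the nearest library was 0.778 of the range over the 6, above the limit of 0.625 for a group of 6. It was the 1 such library among 128 groups examined over 64 genes. The limit is set to flag about 1 in 20 groups when groups are independent and each is of 1 kind. Here each gene gave 2 groups, all 6 acetate-containing libraries and the 4 of set 2 among them. These groups overlap and the 6 span both sets, so the number of flags cannot be compared with that rate. In the same library the microglial markers summed to 184.1 CPM, the lowest of the 9 libraries, and the part of that in the Cd36 value was not tested.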

How the results depend on the processing

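No alternative gave a called gene in the pooled comparison, by limma. The smallest adjusted p was 0.0899, in set 2 alone. With the replicate block by library-name number 0 genes were called (smallest adjusted p 0.611), with 460 genes higher and 676 lower at an unadjusted p under 0.05. The block was run on the pooled comparison alone. Control 1 has no such number and stood in a block by itself, and acetate 3 and Aβ plus acetate 3 shared a block without a control. The acetate difference in that fit thus rested on controls 2 and 3, acetate 1 and 2 and Aβ plus acetate 1 and 2. The title-number block gave 0 calls as well. Leaving out single libraries, the genes of 1 sign numbered 2452 to 4211 (4211 without control 1, against 2686) and the genes with no overlap 802 to 2638, against 741. The genes with no overlap were 2638 without control 1, 1629 without control 2, 1900 without acetate 1 and 1445 without Aβ plus acetate 1, a count that fewer libraries to compare makes larger by construction. The interaction called 0 to 1 genes, 1 without control 2. Without control 3 neither count nor the interaction could be had, and the genes of 1 sign could not be counted without acetate 1 or Aβ plus acetate 1.

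Of the 64 named genes, 10 took the other sign without the set in the fit, with the same values in the title-number block without the set: Serpinf1 -0.37, Txnip -0.56, Syvn1 0.57, Sdf2l1 1.32, Hyou1 0.88, Xbp1 0.77, Mt3 -0.052, Acaa2 -0.054, Ptprc 0.32 and Hk2 0.13. The sets hold unequal shares of the groups. Txnip was -0.052 with library weights, 0.11 without control 2 and -0.13 in set 1 alone, which is also the fit without control 3, where Slc25a1 was -0.012. Without control 1 Slc25a1 was 0.23 and Apoe 0.21. In set 2 alone Slc16a1 was -0.026, Cdk1 0.035 and Itgam 0.014. Apoe was -0.060 with the title-number block and the set, and -0.016 without control 2. The cause was not tested. The other named genes kept their sign in every alternative that could be fitted. Set 2 has 1 control, which limits every value from it.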
